A study of Mus musculus with 28 samples.

Results

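The 10 immediate-early genes Fos, Fosb, Jun, Junb, Egr1, Egr3, Atf3, Ier2, Nr4a1 and Dusp1 were followed in the ventricular myocardium of 28 mice. They were chosen by name, as genes that respond to handling and stress when tissue is collected, and each name matched 1 row of the 45513 genes in the count table. All 10 were among the 24273 genes with enough counts to be tested. No member was at 0 in any library: the smallest count was 34, for Fosb, and the largest was 6678, for Egr1. All mice were adult male C57BL/6 mice. They had a sham operation or a 5/6 nephrectomy in 2 stages at 6 weeks of age, which leaves little kidney tissue and models chronic kidney disease (CKD). On day 7 a single oral dose of Oxalobacter formigenes (Oxf), a gut bacterium that degrades oxalate, or of its culture medium (vehicle) was given. Every group, controls included, ate a diet with 1% hydroxyproline, which the body turns into oxalate, and 0.5% calcium. The groups were sham-vehicle with 10 mice, sham-Oxf with 5, CKD-vehicle with 6 and CKD-Oxf with 7. The design foresaw 10 in each, and the rest were not analysed here. At the end the animals were anesthetized with ketamine and xylazine, perfused with PBS, and the heart was frozen. The hour of collection and the time from anesthesia to freezing are not given in the sources used here.

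Immediate-early genes are transcribed within minutes of a stimulus, from factors already present in the cell, and their messages are short-lived. Kinase cascades reach their promoters through serum response factor with its Elk partners, and through CREB, which binds cyclic AMP response elements. In the heart they respond to stretch, adrenergic stimulation, ischemia and the dissection itself. Their products are mostly transcription factors: Fos and Jun family proteins pair as AP-1, Egr proteins bind GC-rich sites, and Nr4a1 is an orphan nuclear receptor. Dusp1 acts in the other direction, since it removes phosphate from the MAP kinases that induce the group.

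RefSeq (GRCm38.p6) gave a promoter for 7 of the 10 members, all but Egr1, Egr3 and Ier2. The 250 bases before the start are shown for Fos and 4 others. Levels of Fosb, Junb and Nr4a1 followed Fos from mouse to mouse even without the mouse highest in Fos. For Jun no such slope passed. Capitals mark TGACG, the core of the cyclic AMP response element, or CGTCA where it lies on the opposite strand.
Fos promoter, chr12:85473640-85473889, plus strand: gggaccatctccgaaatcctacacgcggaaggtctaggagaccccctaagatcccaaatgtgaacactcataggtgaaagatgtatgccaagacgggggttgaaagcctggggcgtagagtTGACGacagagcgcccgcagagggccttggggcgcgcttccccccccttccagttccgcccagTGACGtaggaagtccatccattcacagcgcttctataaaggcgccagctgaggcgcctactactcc
Fosb promoter, chr7:19310046-19310295, minus strand: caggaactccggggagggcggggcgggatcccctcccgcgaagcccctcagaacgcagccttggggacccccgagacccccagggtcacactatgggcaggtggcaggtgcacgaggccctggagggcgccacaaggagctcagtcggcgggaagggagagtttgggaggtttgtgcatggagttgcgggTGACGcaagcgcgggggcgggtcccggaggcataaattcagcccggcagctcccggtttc
Junb promoter, chr8:84978749-84978998, minus strand: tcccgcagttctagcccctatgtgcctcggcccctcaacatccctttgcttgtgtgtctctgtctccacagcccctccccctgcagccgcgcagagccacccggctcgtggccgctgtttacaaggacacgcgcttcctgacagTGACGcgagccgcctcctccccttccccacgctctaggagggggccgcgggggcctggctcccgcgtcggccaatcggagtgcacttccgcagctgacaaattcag
Nr4a1 promoter, chr15:101266596-101266845, plus strand: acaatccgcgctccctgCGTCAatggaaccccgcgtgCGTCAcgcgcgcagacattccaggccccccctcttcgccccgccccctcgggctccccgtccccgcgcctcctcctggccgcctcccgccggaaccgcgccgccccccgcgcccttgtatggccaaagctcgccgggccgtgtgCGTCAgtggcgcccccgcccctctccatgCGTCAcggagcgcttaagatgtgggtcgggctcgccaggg
Jun promoter, chr4:95052223-95052472, minus strand: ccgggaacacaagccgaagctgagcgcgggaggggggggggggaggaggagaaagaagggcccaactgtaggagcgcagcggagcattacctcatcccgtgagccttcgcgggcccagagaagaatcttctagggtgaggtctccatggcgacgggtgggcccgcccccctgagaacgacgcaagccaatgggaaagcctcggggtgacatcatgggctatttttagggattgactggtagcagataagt
This core was present in 6 of the 7 promoters: 2 times in Fos, once in Fosb, Junb and Atf3, 4 times in Nr4a1 and 3 times in Dusp1, but not in Jun. In Fos the copies began 129 and 66 bases before the start. Among 32851 promoters of the same length, 17.8% held it on either strand. The full element TGACGTCA was found in Dusp1 alone (1.55% of all promoters). It holds the core on both strands, so 2 of the 3 matches in Dusp1 overlap in this 1 element. The serum response element (CArG box, 1.47%) and the AP-1 site TGANTCA (6.75%) matched in none of the 7 windows on either strand. Only exact matches within these 250 bases were counted. Sites farther from the start, or spelled otherwise, such as tgacatca in the Jun window, are missed by this search. The TATAAA box was found in Fos alone (12.4% of all promoters). These letters describe the windows and do not show that a factor was bound. The windows shown were chosen by their slopes with Fos, and a link between the core and the slopes was not tested. Atf3, whose slope missed the threshold, and Dusp1, whose call was lost without the mouse highest in Fos, also held the core.

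In GENCODE M21 (build GRCm38, the reference used here for positions) Fos lies at chr12:85473890-85477273, Fosb at chr7:19302696-19310051, Jun at chr4:95049034-95052222 and Junb at chr8:84974484-84978718. Egr1 lies at chr18:34859823-34864984, Egr3 at chr14:70077203-70082614, Atf3 at chr1:191170296-191218039, Nr4a1 at chr15:101254269-101274795, Ier2 at chr8:84661331-84662852 and Dusp1 at chr17:26505590-26562128. All 10 are protein-coding genes, and the positions are those of the whole gene. Jun shares its span with the transcript Junos, Junb with Prdx2 and Atf3 with Gm24748, each on the other strand. Dusp1 shares its span with 4 genes: AC122252.4 and AC122252.1 on its own strand, and Gm8225 and Ergic1 on the other. These spans include introns, and overlap of exons was not examined. Whether the counting used strand is not given in the sources used here. It is therefore not known whether reads of overlapping genes entered the counts of these 4 members. The Dusp1 identifier had another version in the table than in GENCODE M21, so its span and length are less certain than those of the other 9.

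Libraries held 19.8 to 65.38 M counts (M for mega; median 38.11 M), and 27128 to 33995 genes had a count in all libraries but 1. That library, sham-Oxf replicate 1 (mouse 921), had the lowest total and 15879 genes with a count. Levels are given as CPM, the counts of a gene scaled with TMM to a common library total. Each mouse is 1 library of its own, and p-values measure the spread between mice. In bulk tissue, fewer cells of a type and less RNA per cell cannot be told apart. Summed cardiomyocyte markers were at 16890 CPM or more in every library, and summed neutrophil markers did not exceed 3.79 CPM. Divided by exon length, the median level over the 28 mice was highest for Dusp1 (22.1 CPM per kilobase), then Jun (18.1), Ier2 (13.2), Junb (12.1), Egr1 (9.98), Nr4a1 (9.20), Fos (6.04), Atf3 (1.69), Egr3 (0.632) and Fosb (0.429). The ranges over mice of neighbours in this order overlapped.

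Fos, the subunit that gives AP-1 its rapid induction, ranged from 1.96 to 92.7 CPM, a 47.3-fold range. In sham-vehicle the lowest, median and highest mouse had 6.64, 12.1 and 40.0 CPM. In CKD-vehicle these values were 4.64, 17.1 and 71.6 CPM, and in CKD-Oxf 1.96, 17.3 and 92.7 CPM. The 5 sham-Oxf mice had 9.30, 21.998, 8.06, 28.6 and 12.3 CPM. The groups overlapped throughout, and the lowest and the highest mouse of all 28 belonged to the same group. Fosb, a second Fos family subunit, followed at a lower level, with medians of 2.68 CPM in sham-vehicle, 2.13 in sham-Oxf, 2.85 in CKD-vehicle and 3.30 in CKD-Oxf. Its highest mouse in CKD-vehicle had 19.5 CPM and that in CKD-Oxf 39.4 CPM, whereas no sham-Oxf mouse exceeded 4.10 CPM. Its range over all mice was 38.4-fold.

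The Jun subunits, which can pair with themselves as well as with Fos proteins, varied far less. Jun spanned 2.91-fold over all mice, with medians of 64.6 CPM in sham-vehicle, 69.7 in sham-Oxf, 52.0 in CKD-vehicle and 55.6 in CKD-Oxf. Its lowest value, 30.8 CPM, was in sham-Oxf replicate 1, where the next lowest mouse of that group had 67.8 CPM. Junb, a Jun family member that often restrains Jun, spanned 4.75-fold. Its group medians were 22.5, 31.4, 30.9 and 31.7 CPM in the same order. Atf3, a stress-induced partner of AP-1 proteins, ranged from 1.94 to 12.4 CPM, and its medians were 4.51, 3.61, 5.14 and 3.02 CPM.

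Egr1, a zinc finger factor induced together with Fos, ranged from 8.42 to 132.4 CPM (15.7-fold). Its lowest, median and highest values were 23.8, 42.6 and 69.6 CPM in sham-vehicle, 14.8, 55.6 and 95.9 CPM in CKD-vehicle, and 8.42, 32.6 and 130.5 CPM in CKD-Oxf. The sham-Oxf mice had 44.4, 62.7, 30.3, 132.4 and 26.2 CPM. The sham-vehicle mice lay within the ranges of both CKD groups. Its relative Egr3 was scarce, with medians of 3.15 CPM in sham-vehicle, 4.36 in sham-Oxf, 2.46 in CKD-vehicle and 1.67 in CKD-Oxf. Nr4a1 ranged from 11.4 to 115.1 CPM (10.1-fold), with medians of 31.1, 33.7, 43.6 and 25.4 CPM in that order. Its highest mice had 115.1 CPM in sham-Oxf and 111.2 CPM in CKD-Oxf, where the next values were 58.9 and 56.0 CPM. Ier2, a small nuclear protein of the early response, spanned 3.44-fold and Dusp1 spanned 3.33-fold. The medians of Ier2 were 18.2, 20.7, 20.7 and 24.3 CPM, and those of Dusp1 81.4, 72.8, 80.1 and 62.0 CPM.

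**Figure D1:**
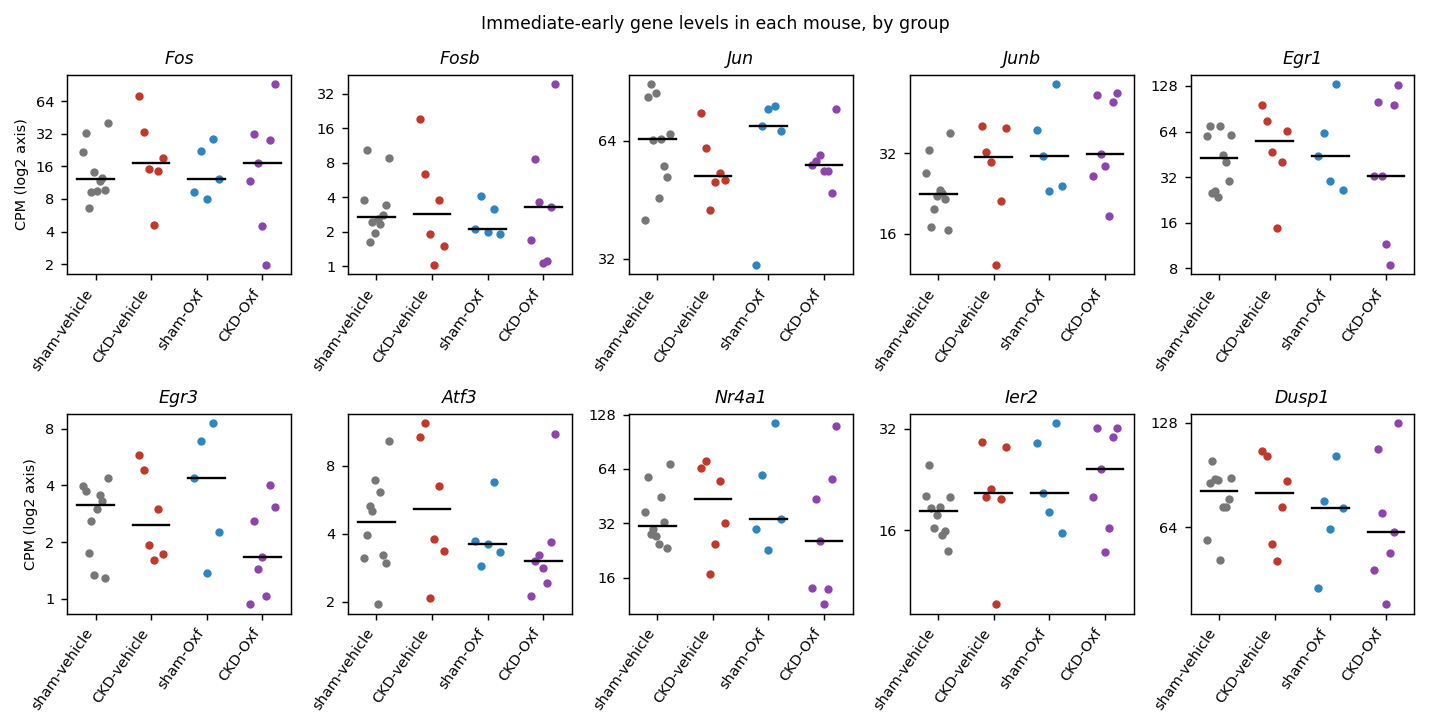
CPM of each of the 10 genes on a log2 axis (scales differ between panels), 1 point per mouse, with n = 10 in sham-vehicle, 5 in sham-Oxf, 6 in CKD-vehicle and 7 in CKD-Oxf; horizontal lines are group medians. The groups overlap in every panel, and Fos runs from 1.96 to 92.7 CPM within CKD-Oxf alone.

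Most of the variation lay within groups. For Fos the SD of log2 CPM was 0.84 in sham-vehicle, 0.79 in sham-Oxf, 1.32 in CKD-vehicle and 1.85 in CKD-Oxf, which pooled to 1.26. This exceeded the within-group SD of 95.5% of the genes tested. Fosb had a pooled SD of 1.29, Egr1 of 1.04, Nr4a1 of 0.88, Egr3 of 0.79 and Atf3 of 0.76, all above the median of 0.55 over all genes tested. Junb (0.53), Dusp1 (0.45), Ier2 (0.43) and Jun (0.37) were below that median, which is raised by scarce genes. Over genes whose mean reached 3 log2 CPM the median was 0.29, and the 7 members in that range all exceeded it. The SD of the 4 group means was smaller than the pooled within-group SD for 10 of 10 members. The medians over all genes tested lay the same way, at 0.25 and 0.55, so this count does not set the members apart. The share of all genes was not counted. The groups accounted for 1.97% of the variation of Fos, 2.02% of Fosb, 2.11% of Egr1, 4.58% of Dusp1, 5.06% of Jun, 6.18% of Nr4a1, 8.89% of Atf3 and 12.5% of Ier2. These 8 were below the median of 14.7% over all genes tested, and Egr3 (17.2%) and Junb (19.8%) were above it. Single mice moved these small shares: without CKD-Oxf replicate 7 (mouse 940) that of Nr4a1 was 17.0%, that of Atf3 19.7% and that of Dusp1 12.8%, and without sham-Oxf replicate 1 that of Jun was 19.3%. The share of Fos ran from 0.047% without CKD-vehicle replicate 1 (mouse 913) to 6.89% without CKD-vehicle replicate 4 (mouse 918). That of Egr1 reached 6.39% without mouse 940 and that of Fosb 4.70% without mouse 913. Egr3 was at 12.1% without sham-Oxf replicate 4 (mouse 927) and at 27.4% without sham-Oxf replicate 3, and Ier2 at 17.0% without CKD-Oxf replicate 4, so neither kept its side of 14.7% in every case.

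**Figure D2:**
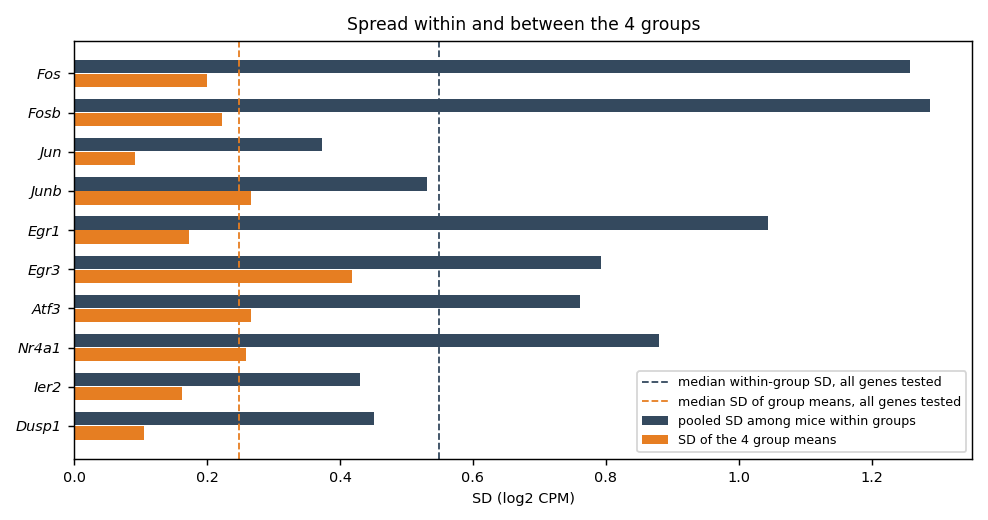
Pooled SD of log2 CPM among mice of a group (dark bars) and SD of the 4 group means (orange bars) for each gene, with the medians over all genes tested as dashed lines. The dark bar is the longer one for every gene, and Fos and Fosb reach 1.26 and 1.29.

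The SD was larger in CKD-Oxf than in sham-vehicle for 9 of 10 members, all but Jun. The members vary together among mice, so these are not separate observations. The share of all genes with a larger SD in CKD-Oxf was not counted, so no background share stands beside the 9. The median SD over all genes tested was also larger in CKD-Oxf (0.46) than in sham-vehicle (0.39). Over genes whose mean reached 3 log2 CPM the medians were 0.31 and 0.26. The difference in spread among the 4 groups was tested on absolute deviations from the group mean (limma, Benjamini-Hochberg over all genes). It passed for 0 of 10 members, against 15.9% of all genes. That background rested on 1 library: without sham-Oxf replicate 1 (mouse 921) 20 genes of the table passed in place of 3854, while 0 members passed. There 3 members had an unadjusted p under 0.05, but the share of all genes was not counted, so no background stands beside them. Measured from the group median in place of the mean, 0 genes passed. The members therefore cannot be set apart from other genes by this count. At an unadjusted p under 0.05 there was 1 member, against 30% of all genes: Nr4a1 (p = 0.0336, limma adjusted p = 0.127), whose SD was 0.53 in sham-vehicle, 0.93 in sham-Oxf, 0.84 in CKD-vehicle and 1.23 in CKD-Oxf. Without CKD-Oxf replicate 3, a mouse near its group mean, the limma adjusted p of Nr4a1 was 0.0343, the single pass among 300 tests of members under 30 alternatives.

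The first group comparison asks whether 5/6 nephrectomy without the bacterium altered these genes. Fos was 0.66 ± 0.57 (SE) log2 units higher in CKD-vehicle than in sham-vehicle, with a 95% interval from -0.51 to 1.83 and an edgeR adjusted p of 0.955. That difference rests on CKD-vehicle replicate 1 (mouse 913): without it the value was 0.05. The other members differed by -0.21 (Jun) to 0.51 (Fosb) on the log2 scale, and 9 of 10 were above 0, against 44.4% of all genes. The genes vary together among mice, so their signs are not separate observations. None passed the test (0 of 10, against 0.00824% of all genes), and none had an unadjusted p under 0.05, which 4.46% of all genes had. The median difference of the 10 was 0.26, and that of all genes was -0.03.

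The comparison of CKD-Oxf with CKD-vehicle asks what the bacterium does in nephrectomized mice, and it shares the CKD-vehicle libraries with the comparison above. Fos differed by 0.03 ± 0.62 log2 units, with an interval from -1.25 to 1.302. Its sign turned on single mice: the difference was -0.73 without mouse 940 and 0.63 without mouse 913. Fosb differed by 0.56, Junb by 0.35, Egr3 by -0.58 and Atf3 by -0.68, with SE of 0.72, 0.27, 0.41 and 0.41. Again 0 of 10 passed, against 0.033% of all genes, and no member had an unadjusted p under 0.05, against 13.1%. The median difference was 0.04, beside 0.03 for all genes.

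Among sham-operated mice, Junb was 0.54 ± 0.26 log2 units higher with the bacterium than with vehicle (unadjusted p = 0.0474, edgeR adjusted p = 0.392). Without sham-Oxf replicate 4 (mouse 927) this value was 0.28. Egr3 was 0.70 ± 0.39 higher (edgeR adjusted p = 0.461), a value of 0.36 without the same mouse and of 0.23 with limma voom. Fos differed by -0.06 ± 0.62. No member passed, and 0% of all genes did, while Junb was 1 member with an unadjusted p under 0.05, against 12.6% of all genes. Averaged over both kinds of surgery, Junb stood 0.45 ± 0.19 higher with the bacterium (edgeR adjusted p = 0.156) and Ier2 0.27 ± 0.15 higher (edgeR adjusted p = 0.304). Here 0 of 10 members passed while 2.81% of all genes did, a background of 681 genes that ran from 109 without CKD-vehicle replicate 2 to 3362 without CKD-Oxf replicate 4. An unadjusted p under 0.05 was found for 1 member, Junb, and for 23% of all genes. For Fos the averaged difference was -0.02, with an interval from -0.91 to 0.88.

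Between CKD-Oxf and sham-Oxf, Egr3 had the smallest p of any member in any comparison. The log2 difference was -1.15 ± 0.43 (interval -2.03 to -0.28, unadjusted p = 0.0118), and the edgeR adjusted p was 0.415. The sham-Oxf mice had 4.36, 6.91, 1.37, 8.59 and 2.26 CPM of Egr3, and the CKD-Oxf mice had 0.933 to 4.02 CPM, so the groups overlapped. Fosb differed by 1.65 ± 0.80 (unadjusted p = 0.0481, edgeR adjusted p = 0.598), and by 0.28 without mouse 940. Averaged over gavage, Fosb was 1.08 ± 0.51 higher with CKD (edgeR adjusted p = 0.459), 0.39 without that mouse and 0.60 without mouse 913. None of the 10 passed in either comparison, where 0% of all genes passed. At an unadjusted p under 0.05 these were 2 members against 8.23% of all genes between the groups, and 1 against 10.6% for the average. Whether the effect of the bacterium differed with surgery was tested as an interaction, which also called 0% of all genes. Egr3 was the 1 member with an unadjusted p under 0.05 there, against 3.55% of all genes, with -1.28 ± 0.57 (unadjusted p = 0.033, edgeR adjusted p = 1), and that of Fos was 0.08 ± 0.88.

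A test for any difference among the 4 groups passed for 0 of 10 members and for 0.148% of all genes. No member had an unadjusted p under 0.05 in it, against 16.1%, and Junb came nearest (p = 0.0614, edgeR adjusted p = 0.335). DESeq2 and limma voom called no member in any of these comparisons either. In none of the 4 pairwise comparisons were the groups of a member free of overlap (0 of 10 each time). Among all genes, groups did not overlap for 0.128% in CKD-vehicle against sham-vehicle, 0.478% in CKD-Oxf against CKD-vehicle, 0.227% in sham-Oxf against sham-vehicle and 0.272% in CKD-Oxf against sham-Oxf. The intervals remain wide for the variable members: differences in Fos of up to 1.83 log2 units lie within that of CKD-vehicle against sham-vehicle, while those of Jun and Dusp1 stay within 0.59 and 0.61 log2 units in the 4 pairwise comparisons and the averaged ones.

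The mice of a group differed in a way that the members shared. Mouse 913 had the highest level of its group in 8 of 10 members, mouse 927 in 9, mouse 940 in 8 and mouse 910 in 5. These mice, CKD-vehicle replicate 1, sham-Oxf replicate 4, CKD-Oxf replicate 7 and sham-vehicle replicate 10, were above their group mean in 10 of 10 members. Mice 918, 931, 934 and 935 were above it in 0 of 10, and mouse 918 was lowest of CKD-vehicle in 7. High and low mice thus occurred side by side, with both kinds in CKD-vehicle and in CKD-Oxf. The TMM factors of mice 910, 913, 927 and 940 were 1.07, 1.05, 1.00 and 1.23, and 33378, 33040, 30306 and 33718 genes had a count there. In mice 918, 931, 934 and 935 the factors were 0.774, 0.805, 0.776 and 0.991, with 31275, 30263, 27128 and 28800 genes. The part of these library properties in the shared deviations was not tested.

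**Figure D3:**
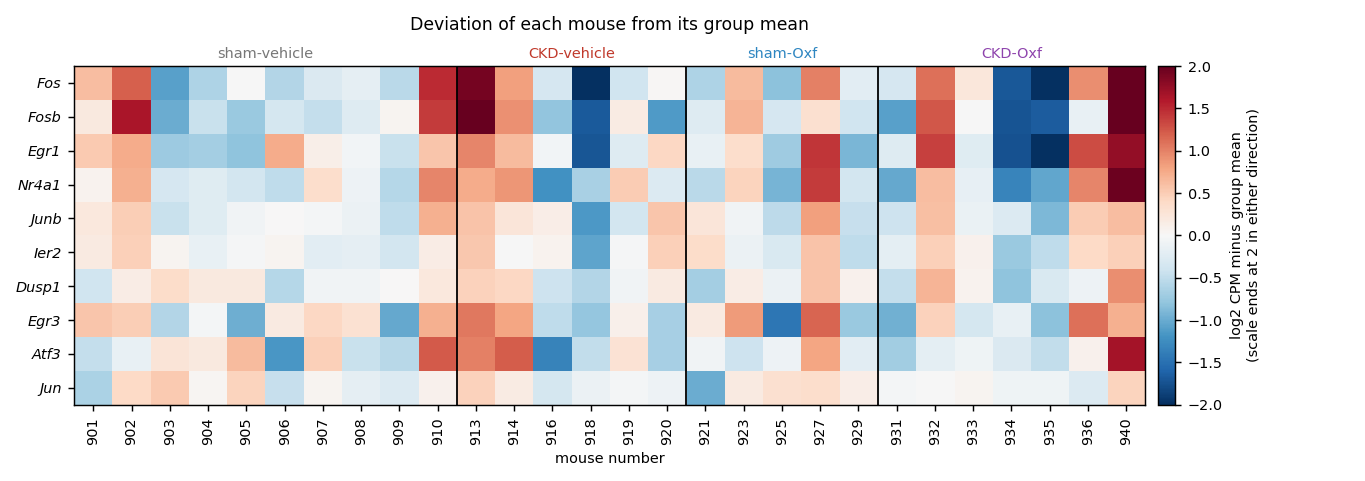
Log2 CPM minus the group mean for each gene (rows) and mouse (columns, by mouse number, grouped as labelled); red is above and blue below the mean, and colors saturate at 2 log2 units. Columns such as 910, 913, 927 and 940 are red in all 10 rows, and 918, 931, 934 and 935 are blue in all 10 apart from shades near 0.

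Mouse numbers are the only order the labels give. A common slope with mouse number within groups (edgeR) passed for 0 of 10 members, against 0.0371% of all genes. The slopes ran from -0.02 log2 units per number (Ier2) to 0.08 (Nr4a1), and the smallest unadjusted p was 0.143, so 0 members were under 0.05, against 5.5% of all genes. Circadian clock genes did pass: 5 of 10 on the side of Dbp rose (Dbp, Tef, Per2, Per3 and Ciart). Arntl fell, as 1 of 5 on its own side. The slope was 0.15 for Tef (edgeR adjusted p = 0.000767) and -0.18 for Arntl (0.0281). What the numbers stand for is not stated, and whether they follow the hour of collection was not tested. No group shares its stretch of numbers with another, so group and number order cannot be fully told apart.

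The association with Fos was then measured for every other gene as a slope: the log2 change per log2 unit of Fos, after the 4 group means were removed. Fosb rose with a slope of 0.96 ± 0.08 (SE; edgeR adjusted p = 9.112e-08), nearly in proportion to Fos. Egr1 followed with 0.75 ± 0.08 (edgeR adjusted p = 6.116e-06) and Nr4a1 with 0.58 ± 0.07 (3.905e-05). Egr3 (0.44), Junb (0.36), Ier2 (0.25) and Dusp1 (0.24) also passed, with edgeR adjusted p of 0.0241, 0.000138, 0.00695 and 0.0264. Atf3 had a slope of 0.37 ± 0.09 that missed the threshold (edgeR adjusted p = 0.0747), and Jun one of 0.09 ± 0.05 (0.422). In all, 7 of 9 members passed, beside 0.231% of all genes. The median slope was 0.37 for the 9 members and 0.01 for all genes. The members were listed together as a shared response, so the count describes these mice and is no independent evidence that the genes belong together.

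**Figure D4:**
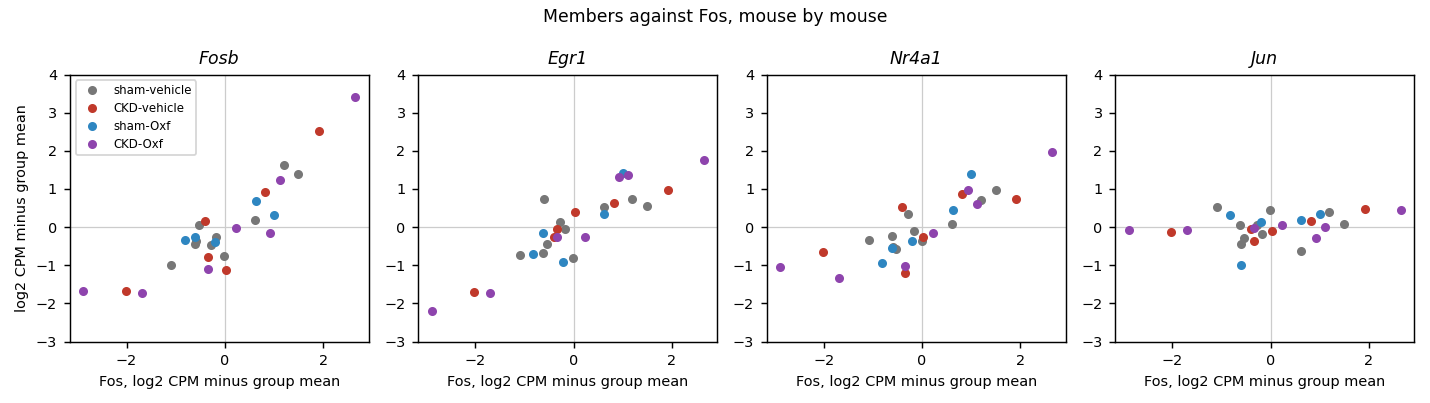
Deviation from the group mean (log2 CPM) of Fosb, Egr1, Nr4a1 and Jun, each against that of Fos; 1 point per mouse, colored by group. The first 3 rise with Fos in mice of every group, with slopes of 0.96, 0.75 and 0.58, and Jun stays near 0 across the range (0.09).

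Several of the weaker calls rested on few mice. Without mouse 940, which had the highest Fos of all, 5 genes of the whole table passed: Fosb (slope 0.85), Egr1 (0.77), Nr4a1 (0.54), Junb (0.39) and the antiproliferative gene Btg2, which is no member. Egr3, Ier2 and Dusp1 kept slopes of 0.48, 0.27 and 0.21 but lost the call. Their edgeR adjusted p there were 0.107, 0.0615 and 0.345, and over all alternatives the adjusted p ran from 0.000465 to 0.9999 for Egr3, from 0.000248 to 0.406 for Ier2 and from 0.00401 to 0.981 for Dusp1. Leaving out mouse 902, 910 or 913 (sham-vehicle replicates 2 and 10, CKD-vehicle replicate 1) in turn left 5 members called each time, since Egr3 and Dusp1 were lost. With both 940 and 913 left out, Fosb, Junb, Egr1 and Nr4a1 passed, with slopes of 0.76, 0.40, 0.82 and 0.57. In the 10 sham-vehicle mice alone no member passed the edgeR test, and 1 gene of the whole table did. There the slopes were 0.96 for Fosb, 0.53 for Nr4a1, 0.45 for Egr1 and Egr3, 0.43 for Junb and 0.01 for Dusp1 and Jun. Limma voom with sample weights called 8 members, Atf3 included (limma adjusted p = 0.00413, the lowest of its alternatives, which reached 0.9999), and 2999 genes in all.

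**Figure D5:**
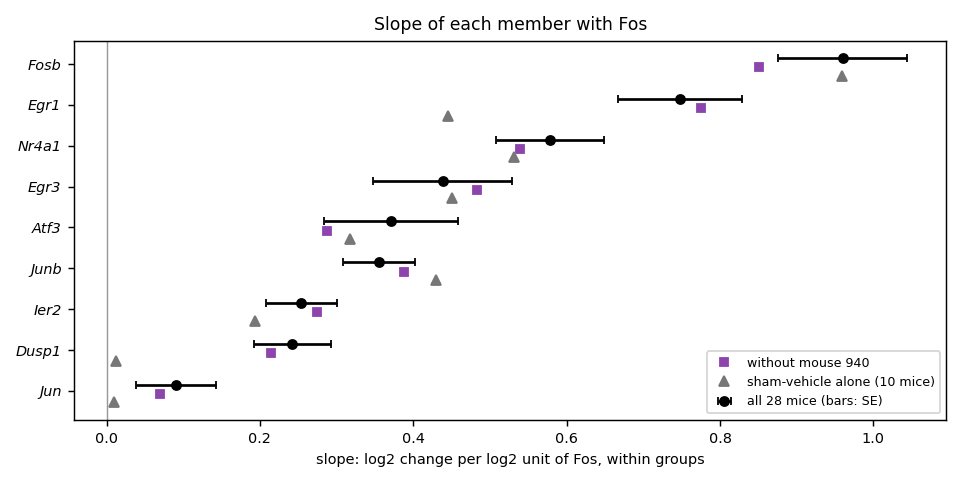
Slope of each gene with Fos (log2 change per log2 unit of Fos, within groups) over all 28 mice (circles, bars are SE), without mouse 940 (squares) and in the 10 sham-vehicle mice alone (triangles). Fosb, Egr1, Nr4a1 and Junb keep slopes of 0.85, 0.77, 0.54 and 0.39 without mouse 940, and Jun lies near 0 in all 3.

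Another group of genes also followed Fos. Of the 56 genes that passed, 53 had a positive slope (0.218% of all genes), and many of them are known from neurons. A list of 17 neuronal genes was written after these results were seen, so its count is no independent evidence. Nor can that count be weighed against those of the other lists. It had 16 tested genes, of which 11 passed. They include the choline transporter Slc5a7 (slope 2.62), the nicotinic receptor subunit Chrna3 (2.13), tyrosine hydroxylase Th (1.68) and neuropeptide Npy (1.48). All of these were scarce, with means of -2.80, -3.004, -3.17 and -2.67 log2 CPM. The best counted genes of the list did not pass: Stmn2 (slope 0.03), Uchl1 (0.14) and Dbh (0.19), with means of 2.33, 1.78 and 0.52 log2 CPM. The summed level of the list was 49.7, 50.3, 63.9 and 42.6 CPM in mice 901, 902, 910 and 940, and 7.93 to 20.0 CPM in all others. Fos was 21.7, 32.4, 40.0 and 92.7 CPM in those 4 mice, all above their group means. In mouse 913, where Fos was 71.6 CPM, the neuronal sum was 10.7 CPM. With the mean of these genes as a covariate, Fosb, Egr1, Nr4a1 and Junb still passed, with slopes of 0.88, 0.80, 0.56 and 0.38, and 5 genes passed in all. Without mouse 940 no neuronal gene of the list passed, without mouse 910 there were 3 and without mouse 902 there were 5. With mice 940 and 913 both left out, 2 passed, Slc5a7 and Syt1, and in sham-vehicle alone the single gene called in the whole table was Tubb3, which is on the list. Of the markers of other cell types, 0 passed in each list, which covered cardiomyocytes, endothelium, fibroblasts, macrophages, neutrophils, smooth muscle, atrium, adipocytes, red cells, skeletal muscle and liver. Their median slopes lay between -0.60 (liver) and 0.22 (atrium), except for adipocyte markers at 0.99.

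Likeness to Fos was also measured as Pearson's r of the deviations from group means, given as a description over the 28 mice, which share library and depth between genes. Among the members, Fos was most like Egr1 (r = 0.89) and Fosb (0.89), and Junb most like Ier2 (0.89). All 45 pairs were above 0, and 33 reached 0.5. Jun was the exception, with r of at least 0.5 in 2 of its 9 pairs, those with Dusp1 (0.70) and Atf3 (0.57), and 0.03 with Egr3. Among 8784 genes outside the list whose mean reached 3 log2 CPM, the nearest to Fos were Btg2 (0.86), Zfp36, which encodes a protein that destabilizes AU-rich messages (0.76), Celf2, an RNA-binding protein (0.73), the insulin receptor substrate Irs2 (0.71) and Ttc9c (0.68). Exoc8 had the lowest r (-0.68). Btg2 was also the nearest gene to each of the other members but Jun, up to an r of 0.92 with Nr4a1. The nearest gene to Jun was the heat shock gene Hspa1a (0.83, and 0.72 without sham-Oxf replicate 1). Hspa1a itself had a slope of -0.08 with Fos.

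Other genes of the early response were examined in the same way. Of 20 other effector genes of the response, 2 rose with Fos: Btg2 (slope 0.33 ± 0.04, edgeR adjusted p = 2.018e-05) and Zfp36 (0.44 ± 0.07, 0.00186), of which Zfp36 did not pass without mouse 940. None of 11 other AP-1 genes, 14 other factors, 13 MAP kinase phosphatases and feedback inhibitors, 25 upstream kinases and factors, 10 heat shock genes or 10 glucocorticoid-responsive genes did. Egr2, a sister of Egr1 and Egr3, had a slope of 0.55 ± 0.13 with an edgeR adjusted p of 0.0591, and the Nr4a1 relative Nr4a3 one of 0.33 ± 0.11 (0.213). The AP-1 subunits Fosl2 (0.09) and Jund (0.02) had slopes as small as that of Jun.

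In the pairwise group comparisons no gene of these lists passed. Averaged over surgery, the bacterium went with changes in a few that were not members. Fosl1, a late Fos family subunit, was 0.76 ± 0.17 log2 units higher (edgeR adjusted p = 0.0217), as 1 of the 11 other AP-1 genes. Of the 14 other factors Csrnp1 (0.47) and the Egr corepressor Nab2 (0.29) rose and Nfil3 fell (-0.87). The kinase Map2k2 rose (0.33), and the chaperones Hsp90aa1 (-0.79) and Hspe1 (-0.75) fell, 2 of 10 heat shock genes. These calls depended on single libraries: under 37 alternatives, most of which leave out 1 of the 28 libraries, the call was found for Fosl1 in 34, Nfil3 in 32, Hsp90aa1 in 23, Nab2 in 21, Map2k2 in 20 and Csrnp1 and Hspe1 in 18. That of Fosl1 was lost without CKD-vehicle replicate 2 or 3. The background was 1.26% of all genes higher and 1.54% lower. Circadian clock genes moved in the same comparison: 7 of 10 genes on the side of Dbp rose (Dbp by 1.51) and 4 of 5 on the side of Arntl fell (Arntl with -2.11). With the clock score as a covariate no gene of the table passed, Fosl1 was at 0.49 (edgeR adjusted p = 0.824, and 0.000514 to 0.824 over its alternatives) and Nfil3 at 0.11. For Junb and Ier2 the averaged differences with that covariate were 0.51 and 0.45, with edgeR adjusted p of 0.849 and 0.829, the highest of ranges that began at 0.1101 and 0.171. Single markers of other cell types passed there too. Tnni3 (-0.72), 1 of 7 cardiomyocyte genes, and Lum (-0.85), 1 of 7 fibroblast genes, were lower. Alb (2.67) and Serpina1a (2.58), 2 of 6 liver genes, were higher. Differences above 0 were found for 1 of the 7 cardiomyocyte genes, 0 of the 7 fibroblast genes and 5 of the 6 liver genes. The part of these cell types in the differences of the other genes was not tested.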

How the data were processed

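The authors deposited 1 table of raw gene counts for the 28 libraries, with whole numbers that sum to a different total in each library. Per the submitters' processing notes, STAR 2.6.1d, featureCounts 1.6.3 of Subread, FastQC 0.11.7 and MultiQC 1.9 were used with mm10. The annotation and the use of strand are not given in the sources used here. Groups were taken from the sample titles, and replicates were numbered in the order of the records, so they pair no mice.

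Counts were scaled with TMM and fitted in edgeR 4.0.16 (R 4.3.3; filterByExpr with a minimum count of 10; robust quasi-likelihood F test) as 4 group means over all 28 libraries. The 24273 genes tested left out the rest of the 45513 in the table, of which 1532 had no count. Adjusted p-values are Benjamini-Hochberg values over all genes tested, with a threshold of 0.05. The SE of a log2 fold change is its size over the root of F, and 95% intervals use the t distribution on the degrees of freedom of the fit. Log2 CPM used a prior count of 2. Spread was tested with limma 3.58.1. In the slope with Fos, which was centred within groups, Fos itself was left out, and 24272 genes were tested. Gene positions came from GENCODE M21, which held 45465 of the identifiers. Tested on simulated counts for 24273 genes, the contrast of CKD-Oxf with CKD-vehicle recovered 97% of 200 genes changed by 2 log2 units, with 7 false calls. The Fos slope recovered 94.5% of 200 genes given a slope of 0.5, with 9 false calls. Changed genes had a mean of at least 2 CPM, and noise was independent between genes. Members differed by -0.68 to 0.56 in that contrast, and the recovery of changes or slopes smaller than those simulated was not measured.

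The members and lists were chosen with earlier results of these data known. Named genes are the members, list genes past the threshold (at most 6 per list and comparison), the 5 genes most like Fos and the least alike, and the nearest gene to each other member. Neuronal, immunoglobulin, Egr2, Nr4a3, Fosl2, Jund and Hspa1a slopes were chosen after their values were seen. Alternatives were DESeq2 1.42.0, limma voom, other scalings and filters, covariates for a clock score and for mouse number, and leaving out each library. One gene of the neuronal list is not reported here.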

Additional observations from a re-analysis of the deposited data

Results flagged for a closer look

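For each member in each group, 40 sets of values in all, the gap between the highest or lowest mouse and its nearest neighbour was divided by the range of the group, on log2 CPM. In 3 of the 40 that ratio was above the 95% critical value of Dixon's test, and chance gives about 2. Jun in sham-Oxf replicate 1 (mouse 921) lay below the other mice of its group with a ratio of 0.841, at 30.8 against 67.8 CPM. Atf3 in CKD-Oxf replicate 7 (mouse 940) lay above with a ratio of 0.669, at 11.04 against 3.67 CPM. Ier2 in CKD-vehicle replicate 4 (mouse 918) lay below with a ratio of 0.65, at 9.68 against 19.9 CPM.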

How the results depend on the processing

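The count of members called stayed at 0 in the 7 group comparisons, the test for any difference among groups and the slope with mouse number under every alternative run. For unequal spread it was 0 to 1 with each library left out. The count for the slope with Fos, 7 of 9, was 4 to 8 with each library left out, 4 with the neuronal genes as a covariate, 4 without mice 940 and 913, and 0 in sham-vehicle alone, where 10 mice were fitted. The neuronal covariate, the removal of those 2 mice and the joint removal of 2 libraries named next were chosen after seeing the data. The Fos difference between CKD-Oxf and CKD-vehicle turned to -0.14 with mouse number as a covariate and ran from -0.73 to 0.63 with each library left out. Between sham-Oxf and sham-vehicle it turned to 0.10 with the clock score as a covariate, to 0.085 without sham-Oxf replicate 1 and CKD-Oxf replicate 4, and to 0.0083 with limma voom, and ran from -0.37 to 0.18 with each library left out. Between CKD-Oxf and sham-Oxf it ran from -0.015 to 1.05. Nfil3, averaged over surgery, was at 0.11 with the clock score, of which it is a part. The cause of these turns was not tested. Counts over all genes moved far more. For the bacterium averaged over surgery they were 681 in the main test, 0 with the clock score and 5336 with limma voom. CKD-Oxf against CKD-vehicle gave 8, 0 and 3639, any difference among groups 36, 1 and 3847, and CKD-vehicle against sham-vehicle 2, 0 and 93 in the same order. With each library left out, the first of these ran from 109 (CKD-vehicle replicate 2) to 3362 (CKD-Oxf replicate 4), the second from 0 (CKD-vehicle replicate 1 or 2) to 927 (CKD-Oxf replicate 4) and the third from 2 (CKD-vehicle replicate 2) to 910 (CKD-Oxf replicate 4). DESeq2 called 169 genes in sham-Oxf against sham-vehicle, 134 in CKD-Oxf against sham-Oxf and 131 for CKD averaged over gavage, where edgeR called 0. The slope with Fos gave 56 genes, 2999 with limma voom, 1 in sham-vehicle alone and 5 (CKD-Oxf replicate 7) to 114 (sham-Oxf replicate 4) with each library left out. The slope with mouse number gave 9 genes, from 0 with the clock score to 15 without sham-Oxf replicate 2. Unequal spread gave 3854 genes, 0 with deviations from the group median, 20 without sham-Oxf replicate 1 and 7059 without sham-Oxf replicate 3. The within-group SD of each member stayed within 1.5 times its value. No paired analysis was possible because replicate numbers follow the order of the records and every mouse is in 1 group only. The smallest count of a member in any library was 34.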
